A study of Homo sapiens with 18 samples.

Results

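Death receptors are cell surface proteins of the TNF receptor superfamily that recruit adaptors through a cytoplasmic death domain. The 10 genes described here are TNFRSF10A, TNFRSF10B, TNFRSF10C, TNFRSF10D, FAS, TNFRSF1A, TNFRSF21, TNFRSF12A, FADD and CFLAR, chosen by symbol from the 56269 genes of the deposited expression table. All 10 were found, and all 10 had a mean value of at least 10 over the 18 libraries, the minimum for testing. TNFRSF10C passed this minimum only through the cells exposed to the oxidant, in which it was higher, so its passing is no support for its change.

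RNA was sequenced from IMR90 cells, a line of human lung fibroblasts from a single donor, in 6 groups of 3 replicates each. The groups differ in what the cells were given for 6 h, namely PBS, cNSF-HA or fNSF-HA, the last 2 at 20 μg/ml, and in whether an oxidant followed. HA is hyaluronic acid, a long sugar polymer of the extracellular matrix, here from the medium of naked mole-rat skin fibroblasts (NSF). The cNSF-HA was left at its full length after mock digestion with a heat-inactivated enzyme, whereas fNSF-HA had been cut in part by hyaluronidase, which was then inactivated by heat. The other 3 groups received the same pre-incubations and were then exposed to 200 μM tBHP, an organic peroxide used as an oxidative stressor, for 1 h and collected 6 h after its start. Cells without tBHP were collected at the end of the pre-incubation. The tBHP response therefore holds the exposure, the later collection and the time without HA, which cannot be told apart.

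Values are normalised read counts, that is reads per gene after division by a factor that DESeq2 set for each library. The libraries held between 20261103 and 26287660 reads on genes. All 10 fibroblast markers examined were expressed, COL1A1 at 160232 to 337705 and FN1 at 394014 to 671996. Of 5 epithelial markers only KRT19 had a mean of at least 10, with KRT5 and SFTPC at 0 reads. Of 4 endothelial markers only VWF did (3.73 to 25.0), with CDH5 at 0, and none of 5 leukocyte markers did (summed value 1.97 to 13.6). The median SD between replicates over all genes tested was 0.063 to 0.070 on the log2 scale without tBHP and 0.15 in PBS, 0.15 in cNSF-HA and 0.22 in fNSF-HA cells with it. In fNSF-HA replicate 2 with tBHP, the 20% of genes richest in GC lay 0.61 below their mean level in the 9 libraries with tBHP (median, log2) and the 20% poorest in GC lay 0.43 above. Measured the same way among the libraries with or without tBHP, the next largest deviation of the GC-rich genes was 0.25, in PBS replicate 1 with tBHP.

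The receptors sort by what their intracellular part can do. TNFRSF10A (DR4) and TNFRSF10B (DR5) bind the ligand TRAIL and carry a full death domain, whereas TNFRSF10C (DcR1) lacks an intracellular domain and TNFRSF10D (DcR2) has a truncated one, so both are called decoys. FAS binds FAS ligand, TNFRSF1A (TNFR1) binds TNF and TNFRSF21 (DR6) is a further receptor with a death domain. TNFRSF12A (Fn14), the receptor of TWEAK, has no death domain and was included as a related receptor. FADD is the adaptor that links FAS and the TRAIL receptors to caspase-8, and CFLAR (c-FLIP) is a caspase-8 homologue that competes for binding to FADD. TNFRSF10A, TNFRSF10B and FAS are known transcriptional targets of p53, and TNFRSF10B is also a known target of the stress factor CHOP.

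The sequences just before the start sites of TNFRSF1A, whose level rose with tBHP, and TNFRSF21, whose level fell or did not pass the test, are shown as an example of each kind and do not stand for the other receptors. They come from RefSeq (GRCh38.p14), both on the minus strand and printed 5′ to 3′, and stop before the first exonic base of any GENCODE transcript. That of TNFRSF1A covers chr12:6342115-6342326 (212 bases) and that of TNFRSF21 chr6:47309906-47310155 (250 bases). Capitals mark matches to any of 4 motifs on either strand.
TNFRSF1A: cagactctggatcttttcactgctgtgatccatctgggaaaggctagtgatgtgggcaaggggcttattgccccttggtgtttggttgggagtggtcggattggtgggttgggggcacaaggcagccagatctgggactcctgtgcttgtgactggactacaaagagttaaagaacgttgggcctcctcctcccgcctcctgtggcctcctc
TNFRSF21: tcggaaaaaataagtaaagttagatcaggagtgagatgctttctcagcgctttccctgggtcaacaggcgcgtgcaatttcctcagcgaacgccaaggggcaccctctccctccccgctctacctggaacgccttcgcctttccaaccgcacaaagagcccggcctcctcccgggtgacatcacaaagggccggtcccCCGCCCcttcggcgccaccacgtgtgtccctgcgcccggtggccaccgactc
The motifs were the GC box (GGGCGG), the AP-1 site (TGANTCA), the antioxidant response element (TGACNNNGC) and the ATF4-CHOP composite site (TGATGNAAT). The TNFRSF21 window held 1 GC box, on the opposite strand, and the TNFRSF1A window held none of the 4. FAS, which also rose, has 3 RefSeq windows of 250 bases, not printed here: each held a GC box, 1 held an AP-1 site and 2 an antioxidant response element. CFLAR, which was lower with tBHP, held an antioxidant response element in 1 such window and an AP-1 site in another, besides GC boxes. The FADD window held 2 GC boxes and none of the other motifs. Of 35116 RefSeq windows, 42.6% held a GC box in 250 bases and 37.7% in 212. The other motifs were in 6.57% (AP-1), 10.9% (antioxidant response element) and 0.888% (ATF4-CHOP) of the windows of 250 bases, and in 5.71%, 9.05% and 0.743% of those of 212. A match is a run of letters and not evidence of binding, and the absence of one says only that these letters are not in this window.

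In the GENCODE annotation of GRCh38, the 4 TRAIL receptor genes lie side by side on chromosome 8, between 23020133 and 23225126, a span of 205 kb. No stretch of 100 bases, the length of a read, was shared between any of the 10 genes. FAS lies on chromosome 10 (88990582 to 89015785), TNFRSF1A on chromosome 12 (6328757 to 6342114), TNFRSF21 on chromosome 6 (47231532 to 47309905), TNFRSF12A on chromosome 16 (3018445 to 3022383), FADD on chromosome 11 (70203163 to 70207390) and CFLAR on chromosome 2 (201116104 to 201176687). The library kit does not mark strand, so reads of overlapping genes on opposite strands cannot be told apart. This matters most for FADD, of whose exonic bases 54.9% are also exonic in the antisense gene AP000879.1. For FAS the share was 8.93%, with ACTA2. TNFRSF10C shared 28.9% of its stretches of 100 bases with the overlapping genes AC107959.4 and AC107959.5 on the same strand.

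Within PBS cells without tBHP, the 10 genes spanned a wide range of levels. Per kb of exonic sequence, TNFRSF12A was highest at 4378 ± 43.4 normalised read counts (SD, n = 3), followed by TNFRSF10D at 1840 ± 38.3 and TNFRSF1A at 658 ± 11.96. FADD (566 ± 34.6) and TNFRSF10B (543 ± 7.16) did not differ beyond their spread. FAS came next at 180 ± 6.99, then TNFRSF21 at 79.7 ± 4.07, CFLAR at 49.9 ± 1.25, TNFRSF10A at 11.3 ± 1.16 and TNFRSF10C at 1.99 ± 0.598. CFLAR is understated on this scale, since the exons of its many transcripts sum to 22529 bases. Of the TRAIL receptors the decoy TNFRSF10D and the death receptor TNFRSF10B thus made up most of the reads, and TNFRSF10A and TNFRSF10C few. In PBS cells with tBHP the order differed: TNFRSF10B (1410 ± 17.9) was level with TNFRSF1A (1394 ± 86.3) and above FADD (575 ± 34.0), and TNFRSF10A (51.3 ± 1.97) was above CFLAR (44.5 ± 2.44). In bulk RNA, a change in the share of cells expressing a gene and a change in its level per cell cannot be told apart.

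**Figure D1:**
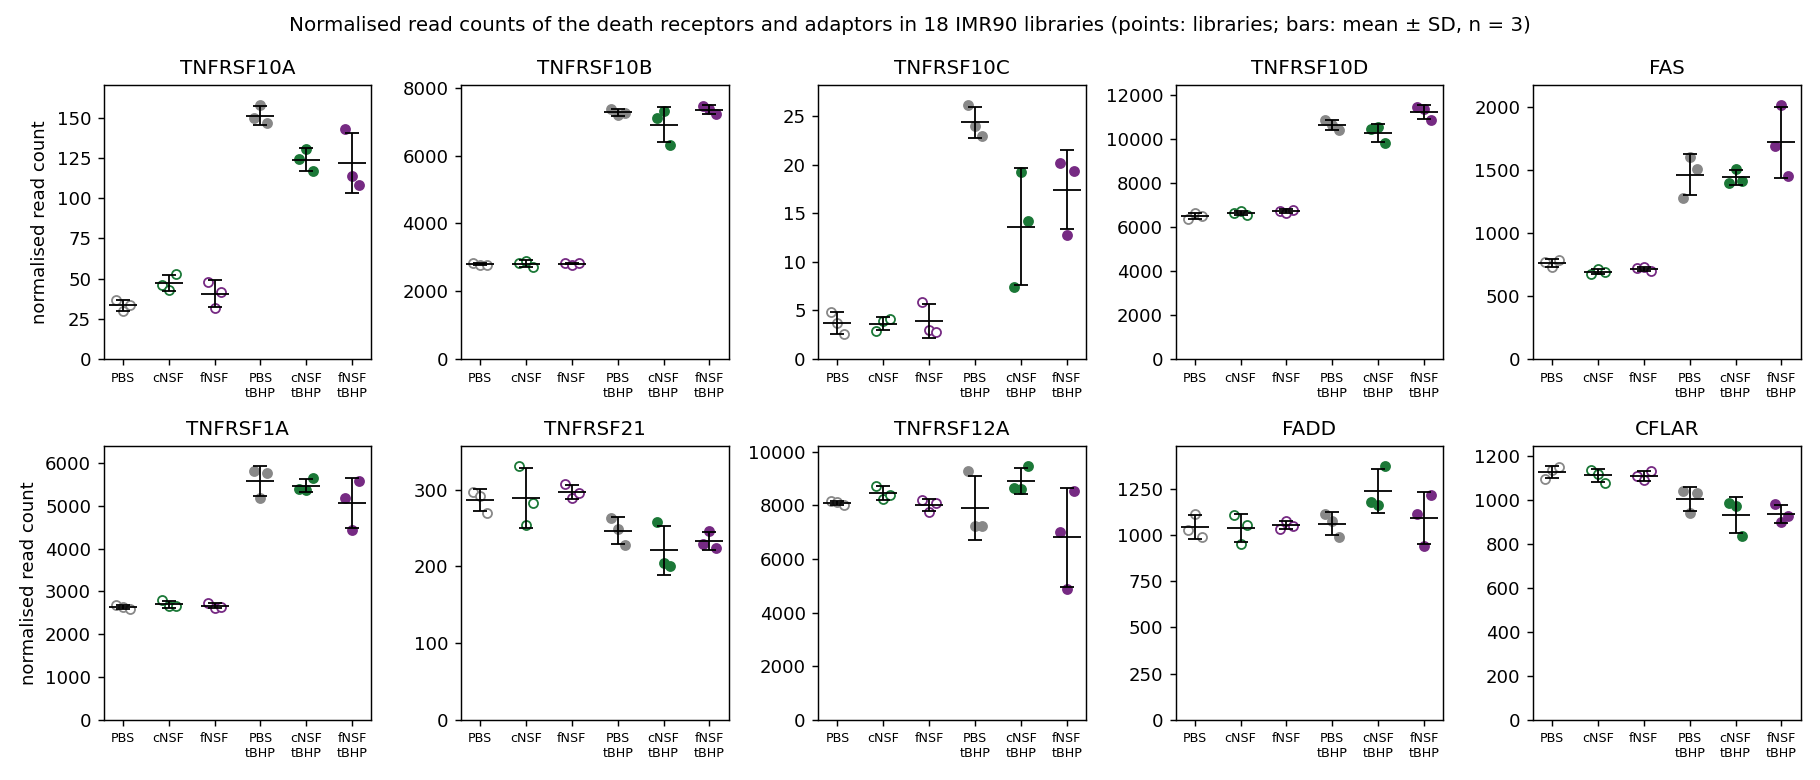
Normalised read counts of the 10 genes (y axis, linear from 0, a scale for each gene) in the 6 groups (x axis), with a point for each library, open without and filled with tBHP, and bars for the mean ± SD of 3 replicates. TNFRSF10A to TNFRSF10D, FAS and TNFRSF1A were higher in all 9 libraries with tBHP than in all 9 without, whereas TNFRSF21, TNFRSF12A and FADD overlapped and CFLAR was lower with it.

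The first question was how each gene responded to tBHP within each pre-incubation. All 4 TRAIL receptors, FAS and TNFRSF1A rose in PBS, cNSF-HA and fNSF-HA cells alike, by 1.54- to 4.44-fold where TNFRSF10C, with its few reads, is left aside. TNFRSF21 and CFLAR were called lower in the cells with either HA, by less than the rises of the receptors. In PBS cells their log2 changes, -0.22 and -0.17, had the same direction without passing. Neither gene passed the test of a difference between these responses, and TNFRSF12A did not pass the test of a response in any. In PBS cells 6 of the 10 genes were called higher, where 24.2% of all 13686 genes tested were, and 0 lower, against 26.9% (limma, Benjamini-Hochberg adjusted p under 0.05). At an unadjusted p under 0.05, 7 of the 10 passed (background 56.8%), the other being CFLAR, lower. In cNSF-HA cells 7 were called higher (background 24%) and 2 lower (26.8%), and in fNSF-HA cells 6 higher (19.2%) and 2 lower (22.7%). Without TNFRSF10C, whose call is no support, 5, 6 and 5 of the other 9 genes were called higher in PBS, cNSF-HA and fNSF-HA cells. The median log2 change of the 10 genes was 0.82, 0.82 and 0.83 in PBS, cNSF-HA and fNSF-HA cells, beside 0.0043, -0.00053 and -0.034 over all genes tested, and 0.71, 0.63 and 0.74 without TNFRSF10C. Fold changes are on the scale of log2(value + 1), which understates those of low genes. The libraries with and without tBHP failed to overlap, in either direction, for 63.8%, 63.7% and 48.7% of all genes in PBS, cNSF-HA and fNSF-HA cells. All 9 libraries with tBHP lay above all 9 without for 12.5% of all genes and below them for 15.3%. Of the 10 genes 6 lay above, TNFRSF10C among them, and 1 below.

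TNFRSF10B, the more abundant of the death receptors for TRAIL, stood at 2842, 2772 and 2785 normalised read counts in the 3 PBS replicates, 2837, 2892 and 2699 with cNSF-HA and 2822, 2786 and 2829 with fNSF-HA. With tBHP the values were 7378, 7200 and 7245 in PBS, 7101, 7315 and 6320 in cNSF-HA and 7468, 7387 and 7221 in fNSF-HA cells. Every library with tBHP lay above every library without it, and the pre-incubations overlapped in both states. The rise was 2.60-fold in PBS (95% interval 2.39 to 2.83, adjusted p = 4.3e-12), 2.46-fold in cNSF-HA (2.26 to 2.67, adjusted p = 9.0e-12) and 2.62-fold in fNSF-HA cells (2.40 to 2.85, adjusted p = 4.0e-12).

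TNFRSF10A, the other death receptor for TRAIL, was low throughout, with 32 to 51 reads per library without tBHP. Its normalised read counts were 36.7, 29.9 and 33.7 in PBS, 45.8, 43.0 and 52.7 in cNSF-HA and 48.1, 31.5 and 41.9 in fNSF-HA cells. With tBHP they were 150, 158 and 147 in PBS, 124, 131 and 117 in cNSF-HA and 143, 114 and 108 in fNSF-HA cells. PBS cells were thus lowest before the exposure, overlapping with fNSF-HA only, and highest after it, overlapping with neither HA. Between the same groups, 15.2% of all genes failed to overlap for cNSF-HA against PBS without tBHP, and with tBHP 9.57% did for cNSF-HA and 12% for fNSF-HA against PBS. The rise was 4.44-fold in PBS (3.52 to 5.60, adjusted p = 6.4e-09), 2.60-fold in cNSF-HA (2.06 to 3.28, adjusted p = 1.7e-06) and 2.98-fold in fNSF-HA cells (2.36 to 3.75, adjusted p = 3.8e-07).

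TNFRSF10D, the decoy with a truncated death domain, was the most abundant TRAIL receptor in each group. Without tBHP it stood at 6373, 6644 and 6508 in PBS, 6650, 6711 and 6556 in cNSF-HA and 6726, 6622 and 6787 in fNSF-HA cells. With tBHP it stood at 10876, 10630 and 10424 in PBS, 10439, 10533 and 9809 in cNSF-HA and 11436, 11358 and 10877 in fNSF-HA cells. All libraries with tBHP were higher than all without, and all 3 fNSF-HA libraries with tBHP were higher than the 3 with cNSF-HA. The rise, 1.64-fold in PBS (1.52 to 1.76, adjusted p = 3.7e-09), 1.54-fold in cNSF-HA (1.44 to 1.66, adjusted p = 2.0e-08) and 1.67-fold in fNSF-HA cells (1.55 to 1.80, adjusted p = 2.4e-09), was the smallest of the 6 receptors that rose.

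TNFRSF10C, the decoy without an intracellular domain, was close to the limit of detection, with 3 to 6 reads per library without tBHP and 7 to 23 with it. Its normalised read counts were 4.83, 3.73 and 2.59 in PBS, 2.86, 3.91 and 4.14 in cNSF-HA and 5.88, 2.96 and 2.80 in fNSF-HA cells. With tBHP they were 26.1, 24.0 and 23.0 in PBS, 7.38, 19.3 and 14.2 in cNSF-HA and 20.2, 12.8 and 19.4 in fNSF-HA cells. Every library with tBHP was above every library without it, but cNSF-HA replicate 1 by little. The log2 change was 2.45 in PBS (adjusted p = 3.0e-05), 1.58 in cNSF-HA (adjusted p = 0.0018) and 1.95 in fNSF-HA cells (adjusted p = 0.00038). At these counts the size depended on the pseudocount: it was 2.72, 1.79 and 2.19 with 0.1 and 1.76, 1.06 and 1.34 with 5. The overlap with AC107959.4 and AC107959.5 also leaves it uncertain which gene's reads were counted.

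FAS stood at 770, 732 and 791 normalised read counts in PBS, 676, 715 and 690 in cNSF-HA and 720, 729 and 700 in fNSF-HA cells. After the exposure it was at 1283, 1605 and 1509 in PBS, 1403, 1512 and 1419 in cNSF-HA and 1695, 2018 and 1458 in fNSF-HA cells. All libraries with tBHP were higher than all without, and fNSF-HA replicate 2, the library in which GC-poor genes were high, had the highest value. The rise was 1.91-fold in PBS (1.65 to 2.20, adjusted p = 5.8e-07), 2.08-fold in cNSF-HA (1.80 to 2.40, adjusted p = 1.5e-07) and 2.38-fold in fNSF-HA cells (2.06 to 2.75, adjusted p = 1.7e-08). FAS transcripts had a GC content of 39.1%, within the 20% of genes poorest in GC (below 40.8%). ACTA2, which overlaps FAS on the opposite strand, ran the other way, from 6859 to 7705 without tBHP and from 4410 to 6426 with it.

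TNFRSF1A, the main receptor of TNF in most cells, stood at 2680, 2635 and 2585 in PBS, 2789, 2661 and 2649 in cNSF-HA and 2726, 2615 and 2643 in fNSF-HA cells. With tBHP it stood at 5801, 5186 and 5765 in PBS, 5393, 5374 and 5650 in cNSF-HA and 5171, 4441 and 5577 in fNSF-HA cells. The libraries with and without tBHP did not overlap, and the lowest of the former was fNSF-HA replicate 2. The rise was 2.12-fold in PBS (1.90 to 2.35, adjusted p = 1.9e-09), 2.03-fold in cNSF-HA (1.82 to 2.25, adjusted p = 4.7e-09) and 1.89-fold in fNSF-HA cells (1.70 to 2.11, adjusted p = 1.6e-08).

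TNFRSF21, the receptor with a death domain that did not rise, stood at 297, 292 and 270 in PBS, 331, 254 and 283 in cNSF-HA and 307, 290 and 295 in fNSF-HA cells without tBHP. After the exposure it was at 263, 249 and 228 in PBS, 258, 204 and 201 in cNSF-HA and 229, 247 and 224 in fNSF-HA cells. The libraries with and without tBHP did not overlap in PBS and fNSF-HA cells and overlapped in cNSF-HA cells. The log2 change was -0.22 in PBS (95% interval -0.45 to 0.020, adjusted p = 0.12), -0.39 in cNSF-HA (-0.62 to -0.15, adjusted p = 0.0079) and -0.35 in fNSF-HA cells (-0.59 to -0.11, adjusted p = 0.018). The call was lost without cNSF-HA replicate 1 (adjusted p = 0.056) and, in fNSF-HA cells, without replicate 1 without tBHP (adjusted p = 0.061) or replicate 1 with tBHP (adjusted p = 0.053) or with quantile normalization (adjusted p = 0.071). In these fits 24.1%, 19.2%, 19.6% and 21.2% of all genes were called lower, in that order. With the trend of each library with GC content and transcript length removed, TNFRSF21 was called lower in all 3 pre-incubations, with log2 changes of -0.35 in PBS (adjusted p = 0.0056), -0.49 in cNSF-HA (adjusted p = 0.00027) and -0.46 in fNSF-HA cells (adjusted p = 0.00051). In that fit 30.9%, 30% and 31.3% of all genes with a GC value were called lower.

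TNFRSF12A, the TWEAK receptor and the most abundant of the 10 per kb, stood at 8147, 8126 and 7999 in PBS, 8737, 8244 and 8378 in cNSF-HA and 8196, 7743 and 8098 in fNSF-HA cells. With tBHP it stood at 9292, 7212 and 7219 in PBS, 8652, 8596 and 9466 in cNSF-HA and 6994, 4882 and 8550 in fNSF-HA cells. The values with tBHP spread widely within PBS and fNSF-HA cells and overlapped with those without in all 3 pre-incubations. The log2 change was -0.043 in PBS (-0.33 to 0.24, adjusted p = 0.81), 0.074 in cNSF-HA (-0.21 to 0.36, adjusted p = 0.67) and -0.27 in fNSF-HA cells (-0.56 to 0.015, adjusted p = 0.12). Its transcripts had the highest GC content of the 10, 64.2%, and the lowest value was in fNSF-HA replicate 2. With the GC and length trend removed, it fell in all 3, with log2 changes of -0.43, -0.39 and -0.37 (adjusted p = 2.3e-07, 8.6e-07 and 2.0e-06). In fNSF-HA cells it also passed the test without replicate 3 with tBHP (-0.46, adjusted p = 0.0042).

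FADD, the adaptor, stood at 1024, 1113 and 990.1 in PBS, 1105, 953 and 1051 in cNSF-HA and 1033, 1076 and 1050.0 in fNSF-HA cells. After the exposure it was at 1112, 1076 and 990.2 in PBS, 1176, 1164 and 1372 in cNSF-HA and 1114, 940.4 and 1216 in fNSF-HA cells. The libraries overlapped in PBS and fNSF-HA cells and not in cNSF-HA cells, where replicate 3 with tBHP was the highest of all. The log2 change was 0.023 in PBS (-0.18 to 0.22, adjusted p = 0.85), 0.25 in cNSF-HA (0.055 to 0.45, adjusted p = 0.032) and 0.042 in fNSF-HA cells (-0.16 to 0.24, adjusted p = 0.75). The call in cNSF-HA cells was lost without replicate 3 with tBHP (adjusted p = 0.15) or without replicate 2 or 3 without tBHP (0.15 and 0.060), and also with no filter on low values (adjusted p = 0.060). With the GC and length trend removed the log2 change was -0.28 in PBS (adjusted p = 0.0011), -0.12 in cNSF-HA (adjusted p = 0.12) and -0.10 in fNSF-HA cells (adjusted p = 0.18), so its direction is not settled by these data.

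CFLAR, the competitor of caspase-8, stood at 1093, 1133 and 1148 in PBS, 1135, 1118 and 1077 in cNSF-HA and 1107, 1087 and 1130 in fNSF-HA cells. With tBHP it stood at 1037, 939.6 and 1032 in PBS, 982, 973 and 837 in cNSF-HA and 980.4, 899 and 924 in fNSF-HA cells. All 9 libraries with tBHP lay below all 9 without. The log2 change was -0.17 in PBS (-0.32 to -0.014, adjusted p = 0.064), -0.26 in cNSF-HA (-0.41 to -0.11, adjusted p = 0.0066) and -0.25 in fNSF-HA cells (-0.40 to -0.094, adjusted p = 0.011). DESeq2 also called it lower in PBS cells (adjusted p = 0.046), as it did 27.1% of all genes. With the GC and length trend removed it was -0.031, 0.058 and -0.15, with no call left (adjusted p = 0.78, 0.59 and 0.16).

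**Figure D2:**
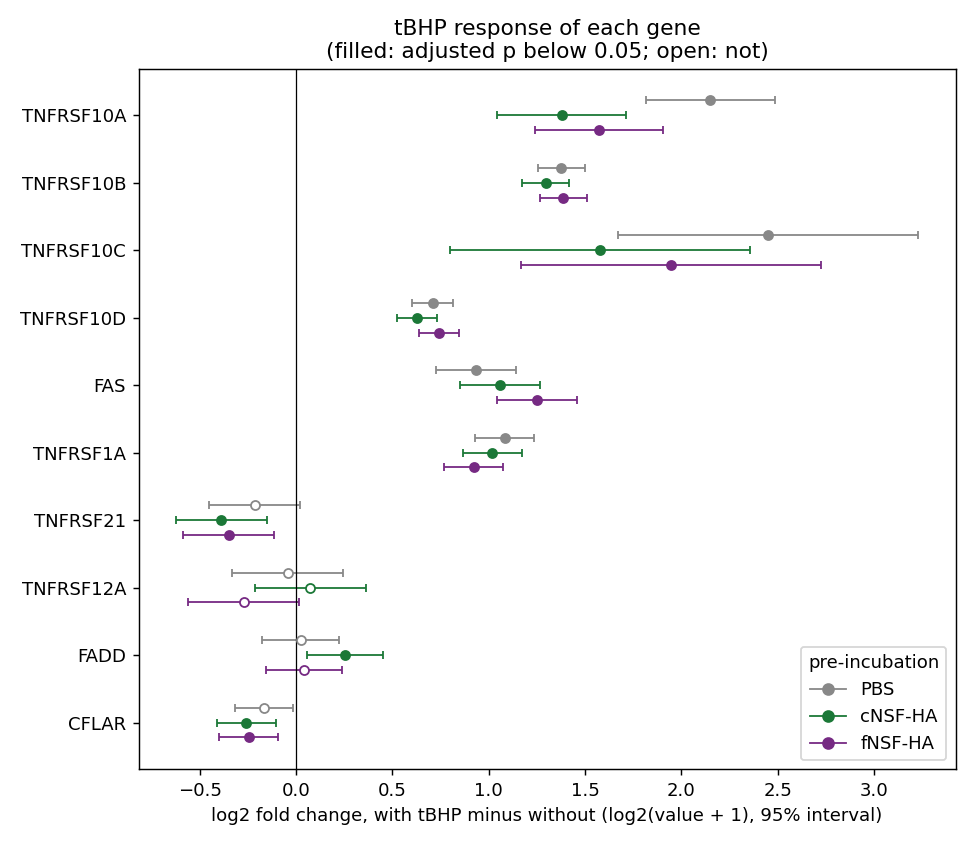
Log2 fold change with against without tBHP (x axis, log2(value + 1)) of each gene (y axis) in PBS, cNSF-HA and fNSF-HA cells, with 95% intervals from limma and filled points for an adjusted p below 0.05. All points of the 4 TRAIL receptors, FAS and TNFRSF1A are filled and to the right of 0, from 0.63 to 2.45, and the filled points of TNFRSF21 and CFLAR lie between -0.39 and -0.25.

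Because the death and the decoy receptors for TRAIL all rose, their balance was described by the log2 ratio of TNFRSF10A plus TNFRSF10B to TNFRSF10C plus TNFRSF10D within each library, in which the scaling of the library cancels. Nearly all of it is the ratio of TNFRSF10B to TNFRSF10D. The ratio was -1.15, -1.25 and -1.21 in PBS, -1.21, -1.19 and -1.25 in cNSF-HA and -1.23, -1.23 and -1.24 in fNSF-HA cells. With tBHP it was -0.53, -0.53 and -0.50 in PBS, -0.53, -0.50 and -0.61 in cNSF-HA and -0.59, -0.60 and -0.57 in fNSF-HA cells. The decoys had more reads than the death receptors in all 18 libraries, and the gap was smaller in every library with tBHP. The mean difference was 0.68, 0.67 and 0.65 in PBS, cNSF-HA and fNSF-HA cells, and 0.58, 0.61 and 0.61 with the GC and length trend removed. No test is given for it, since the genes were chosen with earlier results known.

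The log2 ratio of CFLAR to FADD was 0.11 ± 0.095 in PBS, 0.10 ± 0.11 in cNSF-HA and 0.074 ± 0.051 in fNSF-HA cells without tBHP (SD, n = 3). With tBHP it was -0.079 ± 0.13 in PBS, -0.41 ± 0.26 in cNSF-HA and -0.22 ± 0.17 in fNSF-HA cells. All 9 ratios without tBHP were above 0, the lowest being 0.014, and all with tBHP were below 0 except that of PBS replicate 3 at 0.059. The values with and without tBHP overlapped in PBS cells only, and cNSF-HA replicate 3 was the lowest at -0.71. The direction was not stable. With the GC and length trend removed, the log2 ratio of CFLAR to FADD differed by 0.245 in PBS, 0.18 in cNSF-HA and -0.043 in fNSF-HA cells with tBHP, in place of -0.19, -0.51 and -0.29.

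**Figure D3:**
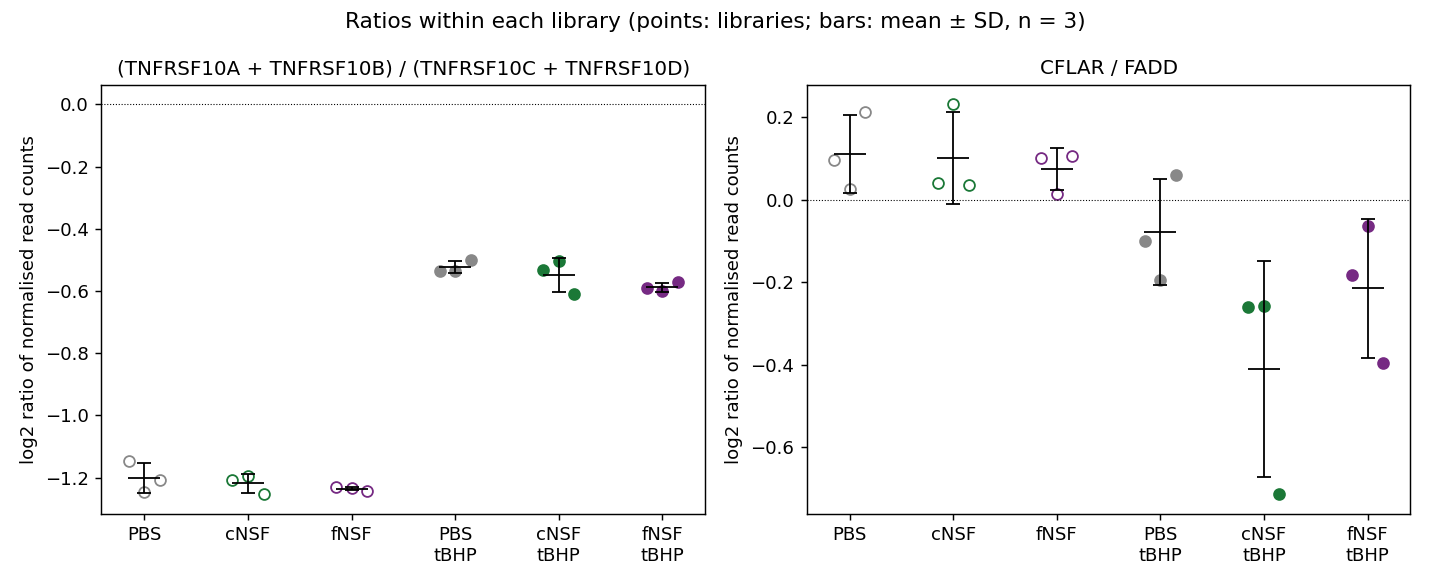
Log2 ratio (y axis) of summed TRAIL death receptors to summed decoys (left) and of CFLAR to FADD (right) in each library (points) of the 6 groups (x axis), with the mean ± SD of 3 replicates. On the left the libraries with tBHP sit between -0.61 and -0.50 and those without between -1.25 and -1.15, and on the right the groups lie closer and overlap in PBS cells.

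The next question was whether HA of either length changed the levels before the exposure. In none of the 3 comparisons without tBHP was a gene of the 10 called with limma, edgeR or DESeq2, and with limma 0% of all genes were. For cNSF-HA against PBS the log2 differences ran from -0.14 to 0.48, and 1 gene had an unadjusted p under 0.05, as 0.921% of all genes had. It was TNFRSF10A, at 47.2 ± 5.00 in cNSF-HA against 33.4 ± 3.43 in PBS cells (SD, n = 3), with no overlap between the libraries. Its log2 difference was 0.48 (0.15 to 0.82, adjusted p = 1.00). The libraries failed to overlap in either direction for 15.2% of all genes. For fNSF-HA against PBS the differences ran from -0.093 to 0.25, with 0 genes at an unadjusted p under 0.05 (background 0.796%). For cNSF-HA against fNSF-HA they ran from -0.047 to 0.23, also with 0 (background 1.51%). For TNFRSF10B the 95% interval of cNSF-HA against PBS was -0.12 to 0.13 and for TNFRSF10D -0.077 to 0.13, which bounds any difference in these more abundant receptors. The spread behind these intervals was estimated over all 18 libraries, those with tBHP included.

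After tBHP, 0 of the 10 genes were called with limma in the 3 comparisons between pre-incubations. For cNSF-HA against PBS with tBHP, where 0% of all genes were called, the log2 differences ran from -0.88 to 0.22. TNFRSF10C (-0.88, -1.66 to -0.10, adjusted p = 0.56) and FADD (0.22, 0.023 to 0.42, adjusted p = 0.56) had an unadjusted p under 0.05, as 8.64% of all genes had. TNFRSF10C was at 13.6 ± 5.97 against 24.3 ± 1.60 and FADD at 1237 ± 117 against 1059 ± 62.6 (SD, n = 3), and neither overlapped, as was the case for 9.57% of all genes. DESeq2 and edgeR called 0 of the 10 here too, though DESeq2 gave TNFRSF10C no adjusted p.

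For fNSF-HA against PBS with tBHP, where 0.139% of all genes were called, the differences ran from -0.48 to 0.23. FAS alone of the 10 had an unadjusted p under 0.05 (background 22.7%), at 1724 ± 281 against 1466 ± 165 with overlapping libraries. Its log2 difference was 0.23 (0.019 to 0.44, adjusted p = 0.19). It was -0.012 with the GC and length trend removed. DESeq2 and edgeR called 0 of the 10, though DESeq2 gave TNFRSF10C no adjusted p. Of the genes to which it gave one, DESeq2 called 3.99%.

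For cNSF-HA against fNSF-HA with tBHP, where 0% of all genes were called, the differences ran from -0.40 to 0.42, and 3 genes had an unadjusted p under 0.05 (background 32.2%). TNFRSF12A was at 8905 ± 487 with cNSF-HA and 6809 ± 1841 with fNSF-HA, a log2 difference of 0.42 (0.14 to 0.71, adjusted p = 0.098). TNFRSF10D differed by -0.13 (-0.24 to -0.024, adjusted p = 0.11) and FAS by -0.24 (-0.45 to -0.035, adjusted p = 0.11). TNFRSF12A and TNFRSF10D did not overlap, as was the case for 13.4% of all genes, and FAS did. With the GC and length trend removed the differences of TNFRSF12A, TNFRSF10D and FAS were -0.062, -0.064 and -0.040. DESeq2 called TNFRSF10D (adjusted p = 0.043), as it did 7.37% of the 10767 genes to which it gave an adjusted p, and edgeR called 0 of the 10.

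The comparisons of fNSF-HA with PBS and with cNSF-HA after tBHP depended on which fNSF-HA library was included. Without fNSF-HA replicate 3, in which GC-rich genes were not low (0.14 against -0.13 in replicate 1 and -0.61 in replicate 2), 3 of the 10 were called against PBS and 5 between the HA groups, where 29.4% and 40.8% of all genes were, so the counts are near the shares over all genes. Against PBS these were FAS (0.34), TNFRSF1A (-0.22) and TNFRSF12A (-0.43), and between the HA groups TNFRSF12A (0.61), FAS (-0.36), FADD (0.27), TNFRSF1A (0.19) and TNFRSF10D (-0.15). FADD and TNFRSF1A were named after their values were seen. With the GC and length trend removed and all libraries kept, their differences between the HA groups turned to -0.098 and -0.12. Without replicate 1 or 2 of the same group, 0 were called. Without replicate 2, the differences against PBS were 0.11 for FAS, -0.054 for TNFRSF1A and -0.022 for TNFRSF12A, and those between the HA groups 0.20 for TNFRSF12A, -0.12 for FAS, 0.084 for FADD, 0.027 for TNFRSF1A and -0.12 for TNFRSF10D.

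**Figure D4:**
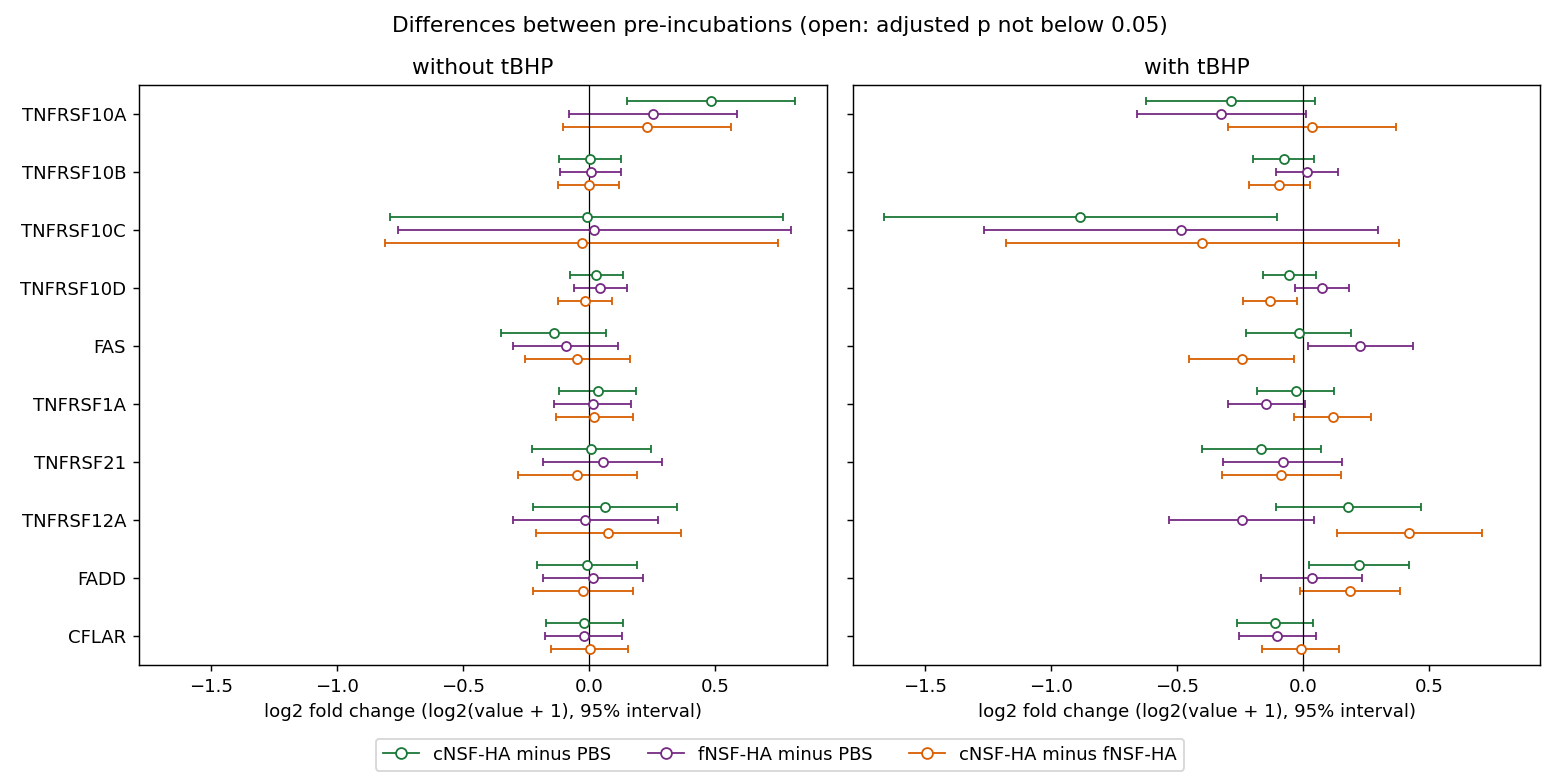
Log2 difference between pre-incubations (x axis, log2(value + 1)) of each gene (y axis) without (left) and with tBHP (right), with 95% intervals from limma. All points are open, as no adjusted p was below 0.05, and the widest intervals are those of TNFRSF10C, the gene with the fewest reads.

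The difference between the tBHP responses of the pre-incubations was tested as an interaction. None of the 10 genes passed in any of the 3, with limma, edgeR or DESeq2, and 0% of all genes did with limma. The response of TNFRSF10A was 0.77 lower in cNSF-HA than in PBS cells on the log2 scale (interval of the difference -1.24 to -0.30, adjusted p = 0.999). Its response was 0.58 lower in fNSF-HA than in PBS cells (interval of the difference -1.05 to -0.10, adjusted p = 0.67). Both differences are set against the same PBS libraries. The response of FAS was higher in fNSF-HA than in PBS cells by 0.32 (0.026 to 0.61, adjusted p = 0.67). Of all genes, 4.06% had an unadjusted p under 0.05 for cNSF-HA against PBS, 6.88% for fNSF-HA against PBS and 3.89% for cNSF-HA against fNSF-HA, where 0 of the 10 did.

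The other genes of the pathway were read from a list of 36 ligands, receptors, adaptors and caspases, of which 28 were tested. In PBS cells 11 of the 28 rose with tBHP and 6 fell, in cNSF-HA cells 11 rose and 6 fell, and in fNSF-HA cells 9 rose and 8 fell. Over all genes tested 24.2%, 24% and 19.2% were called higher and 26.9%, 26.8% and 22.7% lower. The median log2 change of the 28 was 0.15, 0.19 and 0.045 in PBS, cNSF-HA and fNSF-HA cells, beside 0.0043, -0.00053 and -0.034 over all genes tested. Of the 5 ligands 4 had few or no reads. TNFSF10 (TRAIL) had 43 reads in all 18 libraries together, 0 to 6 in each, FASLG had 1, and TNF and LTA had 0, and a count of 0 allows up to 3 reads. TNFSF12 (TWEAK), the ligand of TNFRSF12A, was the only ligand tested, at 116 ± 4.10 in PBS cells and 130 ± 14.7 with tBHP, a log2 change of 0.16 that did not pass the test (adjusted p = 0.47).

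Of the 5 other receptors tested, 3 rose and 1 fell in each pre-incubation, where 24.2%, 24% and 19.2% of all genes rose and 26.9%, 26.8% and 22.7% fell in PBS, cNSF-HA and fNSF-HA cells. EDA2R, a p53-regulated receptor of the ectodysplasin isoform A2, rose from 436 ± 22.2 to 1111 ± 110 in PBS cells, by 1.34 on the log2 scale (adjusted p = 6.1e-08). NGFR, the low-affinity neurotrophin receptor, which has a death domain, rose by 0.68 (adjusted p = 0.0017). TNFRSF25, named after its values were seen, rose by 0.50 in PBS (adjusted p = 0.011), 0.67 in cNSF-HA (adjusted p = 0.0013) and 0.49 in fNSF-HA cells (adjusted p = 0.016). TNFRSF11B (osteoprotegerin), a soluble decoy that binds RANKL and TRAIL, was the receptor that fell, by 0.79 on the log2 scale from 527 ± 37.5 to 305 ± 31.0 (adjusted p = 4.9e-06).

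Of the 20 adaptors and regulators tested, 8 rose and 5 fell in PBS cells (24.2% and 26.9% of all genes), 8 and 5 in cNSF-HA (24% and 26.8%) and 6 and 7 in fNSF-HA cells (19.2% and 22.7%). DEDD2, a protein with a death effector domain, had the largest rise, from 312 ± 8.36 to 963 ± 112 in PBS cells, by 1.62 (adjusted p = 1.2e-07). The largest falls in PBS cells were those of BIRC3 (cIAP2), BIRC2 (cIAP1) and TNFAIP3 (A20), which act in ubiquitin signalling at TNFR1, BIRC3 and TNFAIP3 being known NF-kB targets. Not all genes of that signalling fell: RBCK1 (0.66, adjusted p = 0.0012), RNF31 (0.56, adjusted p = 0.0024) and SHARPIN (0.46, adjusted p = 0.044), the components of the linear ubiquitin ligase, rose in PBS cells and were named after their values were seen. In cNSF-HA cells they also rose, by 0.61, 0.50 and 0.51, and in fNSF-HA cells none of the 3 passed the test, with log2 changes of 0.27 (adjusted p = 0.16), 0.34 (adjusted p = 0.053) and 0.050 (adjusted p = 0.85). With tBHP their lowest values were in fNSF-HA replicate 2, the library in which GC-rich genes were low: 1089, 357 and 425.5. The difference of responses between pre-incubations passed for 0 of the 28 genes, as for 0% of all genes. BIRC3 fell from 302 ± 21.1 to 60.3 ± 11.02 in PBS cells (log2 change -2.32, adjusted p = 4.3e-09), TNFAIP3 from 560 ± 28.4 to 263 ± 25.2 (-1.09, adjusted p = 3.3e-08) and BIRC2 from 5573 ± 72.9 to 3027 ± 401 (-0.89, adjusted p = 7.7e-07). In cNSF-HA and fNSF-HA cells the log2 change of BIRC3 was -2.23 and -2.22 that of TNFAIP3 -1.13 and -1.26 and that of BIRC2 -0.69 and -0.59. TRAF5, an adaptor of TNF receptors named after its values were seen, had log2 changes of -0.81 in PBS (adjusted p = 9.7e-05), -1.20 in cNSF-HA (adjusted p = 1.6e-06) and -0.85 in fNSF-HA cells (adjusted p = 7.7e-05), larger falls than those of BIRC2 in the cells with HA and, with cNSF-HA, than that of TNFAIP3. Of the initiator caspases, CASP8 had a log2 change of 0.099 in PBS cells (adjusted p = 0.47) and CASP10 was below the minimum for testing, with 34 reads in all libraries. BID, the caspase-8 substrate that carries the signal to mitochondria, had a log2 change of 0.13 (adjusted p = 0.16).

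**Figure D5:**
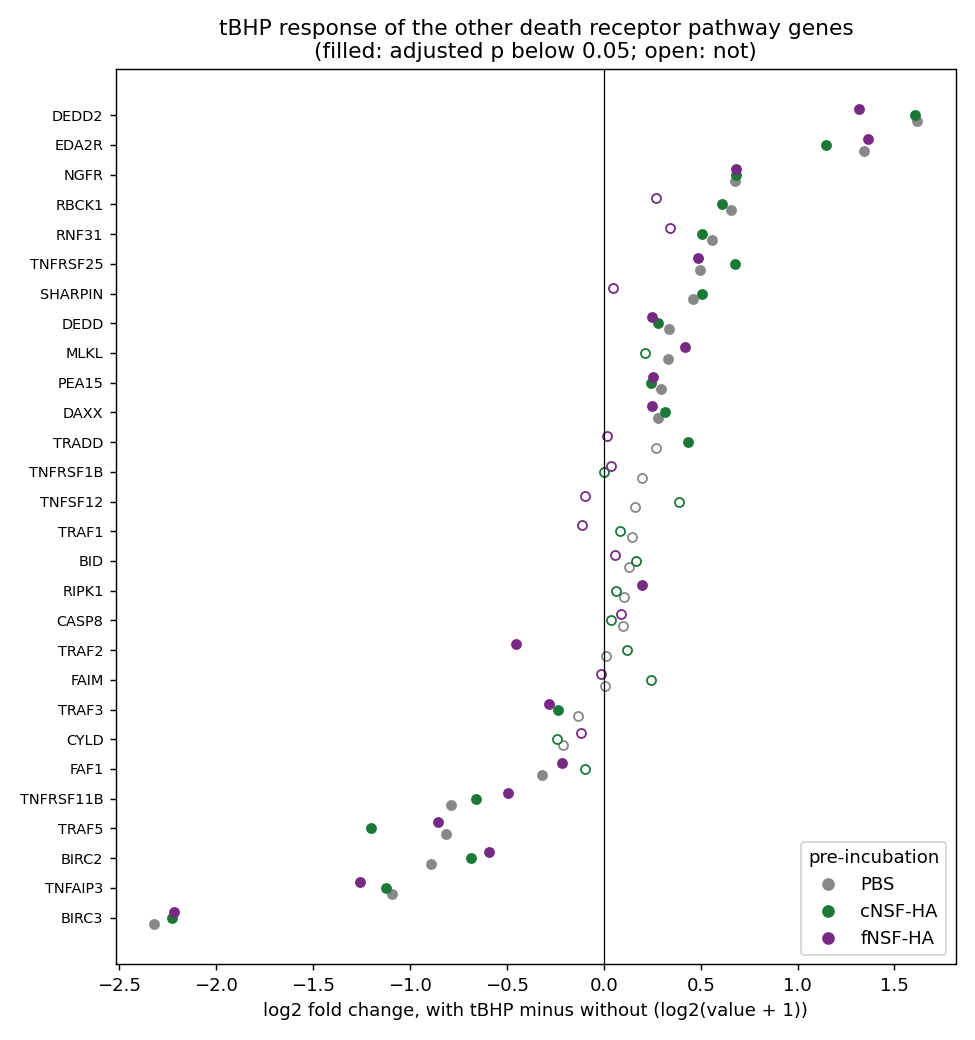
Log2 fold change with against without tBHP (x axis, log2(value + 1)) of the 28 other genes of the pathway list that were tested (y axis, ordered by the change in PBS cells), with a point for each pre-incubation, filled for an adjusted p below 0.05. DEDD2 and EDA2R sit farthest to the right and BIRC3 farthest to the left, at -2.32 in PBS cells.

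The genes whose pattern over the 18 libraries was most like that of a receptor were sought among 10305 other genes with a mean of at least 100. The likeness is Pearson's r of log2(value + 1), given as a description, since all libraries with tBHP share the exposure and any gene that responds to it scores high. For TNFRSF10B they were SLC6A6 (r = 0.998), VLDLR (0.998) and KDM4A (0.997), and for TNFRSF10D TXNRD1 (0.996), MTHFD2 (0.995) and ETV5 (0.995). TXNRD1 encodes thioredoxin reductase and MTHFD2 a mitochondrial folate enzyme. For FAS they were UGDH (0.995), GK (0.994) and LGALS8 (0.994), and for TNFRSF10A THSD1 (0.984), MON1B (0.980) and DLG3 (0.979). TNFRSF12A, for which no tBHP response passed the test, was most like IMPDH1 (0.985), THOP1 (0.980) and RNPEPL1 (0.979), and the few reads of TNFRSF10C were most like CTBP1-AS2 (0.949), LIMK2 (0.948) and PLEKHO2 (0.948). The trend with GC content was not removed here, and the changes of TNFRSF12A, with 64.2% GC, depended on it. Whether the genes like TNFRSF12A share that trend was not tested.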

How the data were processed

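RNA of IMR90 cells was sequenced by the authors as single-end reads of 100 nt from TruSeq RNA V2 libraries, with 6 groups of 3 replicates taken from the labels. The submitters' processing notes name Trimmomatic 0.32, STAR 2.5.2b, featureCounts (Subread 1.5.0-p3), DESeq2 and the build GRCh38.p7; the annotation is not given in the sources used here. The deposited signal per gene is the read count divided by the DESeq2 size factor of the library. In every library 100% of values were whole reads (tolerance 0.01 of a read). The table also holds a deposited p-value, q-value and rank per gene, which were not used. The replicates are described as biological, and p-values measure the spread between these samples. The limma fit took 1 spread for each gene from all 18 libraries. The median SD was 0.063 to 0.070 without tBHP and 0.15 to 0.22 with it (log2). A gene at these medians would have a limma spread above its SD without tBHP and below that in fNSF-HA cells with tBHP.

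Of 56269 genes, 31441 had a read, and the 13686 with a mean value of at least 10 entered a limma fit (version 3.58.1, R 4.3.3) of log2(value + 1), allowing for a trend of variance with level, and fitting all 18 libraries with a mean for each group, two-sided, Benjamini-Hochberg adjustment over all genes tested and a threshold of 0.05. There were 12 comparisons: 3 tBHP responses, 6 between pre-incubations and 3 differences of responses. The fit was tested on simulated data. Depth was 20261103 to 26287660 reads, with a median of 22526525.

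The members and lists were chosen with earlier results of these data known. All 10 genes are named in the responses; between pre-incubations those with an unadjusted p under 0.05 are. Of the pathway list, the ligands and up to 3 largest rises and falls in PBS cells are named, and TNFRSF25, TNFRSF11B, TRAF5, RBCK1, RNF31, SHARPIN, CASP8, CASP10 and BID in addition, after their values were seen. Alternatives were pseudocounts of 0.1 and 5, no filter, a minimum mean of 50, quantile normalization, TMM scaling, edgeR 4.0.16 (quasi-likelihood) and DESeq2 1.42.0 on recovered reads, a replicate block, a fit of the 2 groups compared, and omission of each library in turn. Removal of a trend with GC content and length (GENCODE release 29, 12528 genes or 91.5%, all 10 included) was chosen after seeing the data.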

Additional observations from a re-analysis of the deposited data

Results flagged for a closer look

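TNFRSF10A in cNSF-HA cells differed from PBS cells in opposite directions before and after tBHP. Without tBHP all 3 cNSF-HA libraries were above all 3 PBS libraries (log2 difference 0.48), and with tBHP all 3 were below them (-0.29). The difference between these effects, which is the same contrast as the difference of tBHP responses, was -0.77 on the log2 scale, which did not pass the limma test after adjustment over all genes (adjusted p = 0.999). Over the alternatives that keep all libraries it ran from -0.79 to -0.72 and with each library left out from -0.84 to -0.69. The gene had 32 to 51 reads per library in the groups without tBHP. Between cNSF-HA and PBS cells 15.2% of all genes failed to overlap without tBHP and 9.57% with it, in either direction. The share that did so in opposite directions was not counted.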

How the results depend on the processing

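The 6 receptors that rose with tBHP did so under every alternative in which they were tested, and at a minimum mean of 50 TNFRSF10C was not tested, which left 5 called higher in PBS and fNSF-HA and 6 in cNSF-HA cells. The smaller changes were less stable. In PBS cells DESeq2 called 1 gene lower (CFLAR), where 27.1% of all genes were, and the fit with the GC and length trend removed 3 of 10, near the 30.9% of all genes. In fNSF-HA cells quantile normalization called 1 lower (21.2% of all genes). With each library left out in turn, 1 to 2 were called lower in cNSF-HA cells and 1 to 3 in fNSF-HA cells. The fit with 1 in cNSF-HA cells called 24.1% of all genes lower, those with 1 in fNSF-HA cells 19.2% and 19.6%, and that with 3 called 22.7%. Between pre-incubations with tBHP, leaving out libraries gave 0 to 3 calls for fNSF-HA against PBS and 0 to 5 for cNSF-HA against fNSF-HA (29.4% and 40.8% of all genes in the fits with 3 and 5), and DESeq2 gave 1 for the latter.

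Directions of some genes turned. With the GC and length trend removed, FADD had log2 changes of -0.28 in PBS, -0.12 in cNSF-HA and -0.10 in fNSF-HA cells, CFLAR of 0.058 and TNFRSF12A of -0.39 in cNSF-HA cells, of which FADD in PBS and TNFRSF12A then passed the test (adjusted p = 0.0011 and 8.6e-07). With tBHP, FAS had a difference of -0.012 for fNSF-HA against PBS and TNFRSF12A of -0.062 in place of 0.42 for cNSF-HA against fNSF-HA. In the latter comparison FADD had -0.098 in place of 0.19 and TNFRSF1A -0.12 in place of 0.12. The response of TNFRSF12A was 0.021 with TMM scaling and 0.034 with edgeR in PBS cells and -0.0077 with quantile normalization in cNSF-HA cells. With libraries left out it ran from -0.17 to 0.018 in PBS cells, and that of FADD from -0.013 to 0.072 in PBS and from -0.041 to 0.14 in fNSF-HA cells. The log2 ratio of TRAIL death to decoy receptors differed by 0.66 to 0.68 and that of CFLAR to FADD by -0.36 to -0.28 with libraries left out, but with the GC and length trend removed that of CFLAR to FADD, averaged over the pre-incubations, turned to 0.13. The causes were not tested.

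Same-numbered replicates did not deviate together (correlations -0.12 to 0.33 over 45, with 0 of 15 pairs of groups all above 0.1), so the numbers were not taken as pairs. With the replicate block PBS cells had 6 of the receptor and adaptor genes called higher and 0 lower. In cNSF-HA cells the counts were 7 and 2 and in fNSF-HA cells 6 and 2, with 0 in the other comparisons. All were as without the block. Without it 24.2%, 24% and 19.2% of all genes were called higher in PBS, cNSF-HA and fNSF-HA cells. The shares called lower were 26.9%, 26.8% and 22.7%. For the tBHP responses with the block the shares of all genes are not given, so those counts have no background. Over all genes the block gave 61 calls in place of 19 for fNSF-HA against PBS with tBHP.

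Depth limits TNFRSF10C and the ligands TNFSF10, FASLG, TNF and LTA, whose few or no reads set the size of any change that can be seen. TNFRSF10A, with 32 to 51 reads per library without tBHP, had in each pre-incubation a larger SD between replicates without tBHP (0.15 to 0.30, log2) than with it (0.055 to 0.21).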
